A study of Rattus norvegicus with 196 samples.

Results

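The prelimbic cortex (PLC) of rats given fluoxetine (FT) was compared with that of control rats (Sham). The 8 samples labelled PLC, 4 FT and 4 Sham, were taken of 196 samples from 25 brain regions. All were bulk RNA-seq libraries of tissue punches. The animals were male Long-Evans rats, 2 months old when treatment began. FT animals took fluoxetine at 18 mg/kg in the drinking water for 6 weeks and Sham animals took water alone for the same time. Each library pooled punches from 10 animals, so 40 animals stood behind each group and the spread between libraries is that of pools. The replicates are numbered 1, 3, 4 and 5, and the FT and Sham samples of a number were processed in parallel, so they are treated as pairs. The question was which transcripts differed between FT and Sham in PLC.

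Fluoxetine blocks the serotonin transporter on raphe axons and so prolongs serotonin signalling in the regions that those axons reach. PLC is the middle part of the rodent medial prefrontal cortex, between the cingulate and the infralimbic cortex. It is built of layered glutamatergic pyramidal neurons with local GABAergic interneurons and sends axons to the amygdala, accumbens, thalamus and dorsal raphe. It is known for its part in goal-directed behaviour and in the expression of fear. In bulk tissue, fewer cells of a type and less RNA per cell cannot be told apart.

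The labelled tissue was checked against marker transcripts in the Sham samples of all 25 regions, as mean CPM, read counts scaled to a common library size. Several forebrain excitatory markers were high in PLC, while Camkv, Hpca, Icam5 and Neurod1 of the same list ranked 8 to 10 of 25. Enc1, an actin-binding protein of cortical neurons, averaged 522 CPM and ranked 2 of 25. Nrgn, a calmodulin-binding postsynaptic protein of excitatory neurons, averaged 547 and ranked 6, with single PLC libraries from 57.5 to 1589.6. The peptide Cck had its highest mean of all regions in PLC, 893 CPM. Its single PLC libraries ran from 83.0 to 3168.6, and the highest was replicate 3. Vip, a peptide of cortical interneurons, ranked 3 at 51.4. Among general and other interneuron markers, Gad2, an enzyme of GABA synthesis, ranked 21 at 27.99 CPM against a median of 41.3 over the regions, and Pvalb, a calcium-binding protein of fast-spiking interneurons, ranked 10 at 146. Myrf, the transcription factor of myelinating oligodendrocytes, had its lowest mean in PLC, 17.7 CPM. Most markers of other structures were low. Exceptions included the striatal Rasd2, at rank 12 with 51.9 CPM against a median of 49.8, and Adora2a, at rank 14 with 2.72 CPM. The peptide gene Ucn ranked 4, on 3 reads over the 4 Sham libraries. Ttr of the choroid plexus averaged 6.41 CPM against 28269 in the locus coeruleus punches, Tcf7l2 of the thalamus 11.8 against 810.2 in MDT, and DRD2 of the striatum 2.25 against 65.7 in NaCcore. Avp had 1 read and Oxt 0 reads over the 4 Sham libraries. Most markers of excitatory neurons and of other structures did not go against the label.

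**Figure D1:**
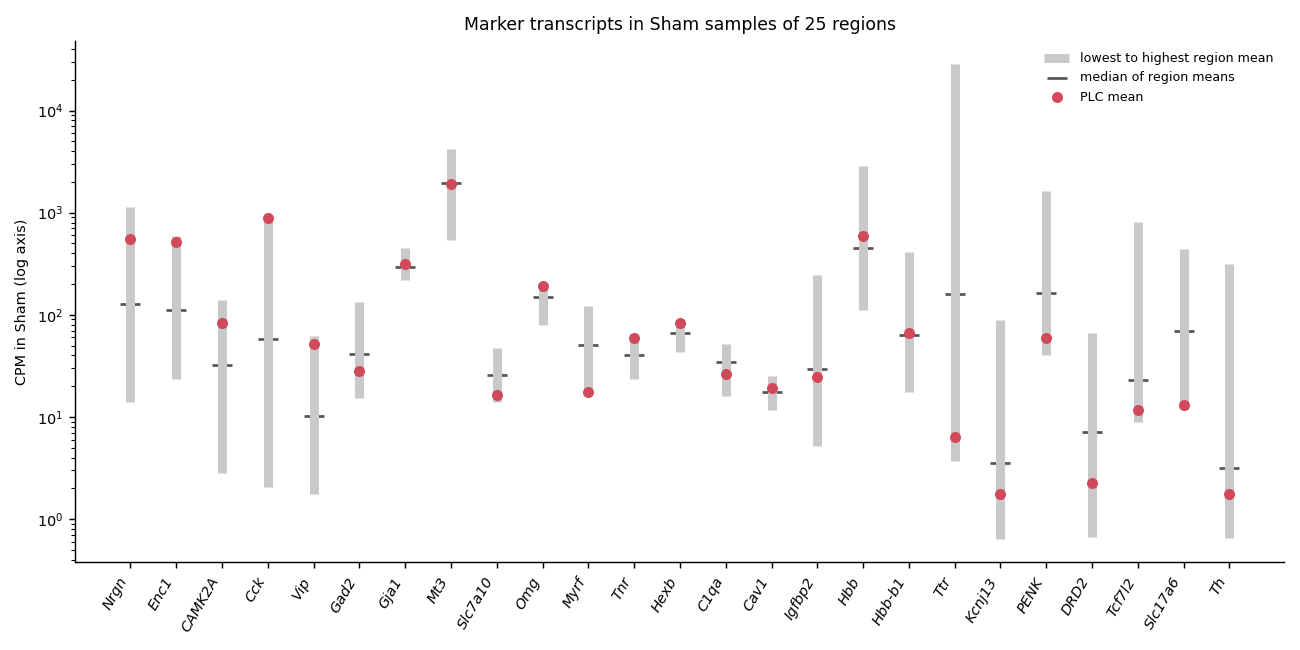
Marker transcripts in Sham, on a log axis of CPM. The grey bar spans the lowest to the highest mean of 25 regions, and the dash is the median of the region means. The red point is the PLC mean, which sits at the top of the bar for Cck and Omg and at the bottom for Myrf. The mean of Cck rests mostly on replicate 3.

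The 8 libraries held between 3865795 (Sham replicate 3) and 26436170 (Sham replicate 1) reads counted on transcripts. Replicate numbers differed in how their reads were spread over transcripts. The 50 most abundant transcripts took 60.6% and 64.5% of the reads in replicate 3, 47.3% and 39.9% in replicate 1 and 26.7% to 33.0% in replicates 4 and 5. Log2 CPM across transcripts correlated at 0.935 to 0.972 between the FT and Sham sample of a number, and at 0.723 to 0.936 between Sham samples and 0.763 to 0.960 between FT samples of different numbers. Some transcripts stood far apart between the numbers. Summed astrocyte markers were 16652 CPM in Sham replicate 3 against 973 to 1942 in the other Sham samples, with FT replicate 3 at 13888. Apoe, a lipid carrier, made up most of that sum in Sham replicate 3, at 11574 CPM, while the astrocytic connexin Gja1 did not stand apart there, at 255, 326, 379.6 and 215 in Sham. Levels are given below in the order of replicates 1, 3, 4 and 5. The labels state that the raw reads of Sham replicate 1 were corrupted. Its counts were used, and results are given without that replicate too.

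After removal of transcripts with low counts, 13211 of 29188 transcripts were tested. With edgeR's quasi-likelihood test and the replicate number as a block, 0 transcripts (0.0% of those tested) passed an adjusted p of 0.1 with a log2 fold change of at least 0.32 in size, and the lowest Benjamini-Hochberg adjusted p was 0.281. At an unadjusted p under 0.05, 692 transcripts (5.24%) were higher and 562 (4.25%) lower in FT. DESeq2 with the same block, on the same counts and cut-offs, called 147 of 10902 transcripts, 79 higher (0.725%) and 68 lower (0.624%). All 147 had an edgeR p under 0.05, with edgeR adjusted p between 0.281 and 0.429. edgeR without the low-count filter called 278 transcripts, 160 higher and 118 lower, of which 268 were among those tested with the filter and 134 were DESeq2 calls. Whether any transcript passed in PLC thus depended on the tool and on the filter. Below, rose and fell are used only of DESeq2 calls and, where stated, of edgeR calls made without a replicate. With no replicate block, edgeR and DESeq2 both called 0. Without replicate 3 edgeR called 25 transcripts, and without replicate 1, 4 or 5 it called 1, 2 and 0. DESeq2 called 135, 96, 90 and 52 transcripts without replicate 1, 3, 4 and 5, among them 69, 59, 39 and 38 of the 147. Of the 147, 9 were called without each of the 4 replicates in turn, and 33 were called in none of these fits. The named ones of the 9 were Rsrc1, Cbx5, Rbx1 and Napb.

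**Figure D2:**
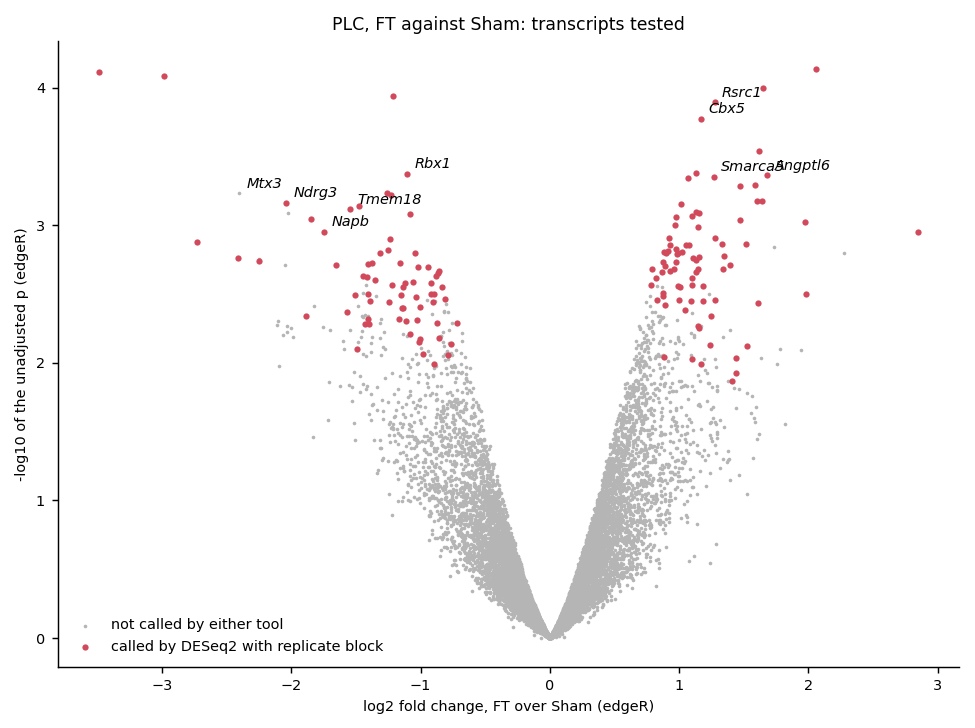
Each point is 1 of 13211 transcripts, with the edgeR log2 fold change of FT over Sham across and -log10 of the unadjusted edgeR p upward. The 147 transcripts that DESeq2 called are red and lie among the lowest edgeR p on both sides, and none passed edgeR's adjusted threshold.

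Gene names are given for the 1844 transcripts that the study lists as differing in several regions, of which 1814 were tested here, so a named transcript is not an independent choice. In PLC, 302 of the 1814 were higher and 179 lower at an unadjusted p under 0.05, which is 16.6% and 9.87% of them. DESeq2 called 56 named transcripts higher and 42 lower, 3.17% and 2.38% of the 1764 to which it gave an adjusted p. Of all transcripts tested, 1308 (9.9%) were higher in FT in all 4 pairs and 1047 (7.93%) were lower in all 4. The groups did not overlap, with every FT sample above every Sham sample, for 113 (0.855%) and the reverse for 77 (0.583%). The groups of most transcripts described next overlapped, even where every pair differed in one direction.

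The 12 named transcripts with the lowest p that were higher in every pair included Rsrc1 and Nsrp1, which act in splicing, and Cbx5 and Smarca5, which act on chromatin. All 12 rose by DESeq2, and Rsrc1 and Cbx5 did so without each replicate. Rsrc1 (ENSRNOT00000051977), an arginine- and serine-rich protein with a role in splicing, stood at 19.9, 20.2, 18.5 and 36.3 CPM in Sham replicates 1, 3, 4 and 5 and at 45.6, 56.1, 59.4 and 62.3 in FT. Every FT sample was above every Sham sample, the highest Sham sample being replicate 5. Its log2 fold change was 1.28 ± 0.23 (SE), with an adjusted p of 0.281 by edgeR and 0.00239 by DESeq2. Nsrp1 (ENSRNOT00000030749), a splicing regulator of nuclear speckles, rose from 21.4, 19.8, 50.7 and 51.6 CPM to 65.5, 59.5, 74.5 and 85.3, again with no overlap. Its log2 fold change was 1.10 ± 0.25, and pairs 1 and 3 showed the larger ratios.

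Cbx5 (ENSRNOT00000055289), heterochromatin protein HP1 alpha, stood at 43.96, 89.4, 149.7 and 122 CPM in Sham and 84.7, 223, 349 and 281 in FT. The groups overlapped, with replicate 1 low in both, and the pairs differed by similar amounts, with log2 ratios of 0.94, 1.32, 1.22 and 1.21, taken on log2 CPM with a prior count of 2. Its log2 fold change was 1.17 ± 0.22, with an adjusted p of 0.318 by edgeR and 0.000886 by DESeq2. Smarca5 (ENSRNOT00000024568), the ATPase of the ISWI chromatin remodellers, rose from 91.1, 39.6, 196 and 123 CPM to 145, 74.2, 652 and 406. Its ratios in pairs 4 and 5, 1.74 and 1.72 on the log2 scale, were larger than those in pairs 1 and 3, 0.67 and 0.91. Bod1l (ENSRNOT00000070998), a protein that protects stalled replication forks, rose from 59.8, 57.1, 118 and 128 CPM to 122, 107, 311 and 210.0. It was highest in both groups in replicates 4 and 5.

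The other 7 were of mixed function. Denr (ENSRNOT00000001467), a factor of translation reinitiation, rose from 24.8, 34.2, 60.5 and 59.7 CPM to 52.3, 128, 149 and 78.2, least in pair 5. Dusp10 (ENSRNOT00000005400), a phosphatase that inactivates the kinases p38 and JNK, was at 8.81, 1.80, 41.9 and 27.2 CPM in Sham and 11.6, 4.35, 178 and 102 in FT. Most of its level, and most of its change, lay in replicates 4 and 5. Pcsk1n (ENSRNOT00000009794), which encodes the neuroendocrine peptide precursor proSAAS, was at 14.00, 205, 5.25 and 8.73 CPM in Sham and 22.8, 505, 13.5 and 16.6 in FT. Replicate 3 stood far above the others in both groups, while the log2 ratios of 0.70, 1.3, 1.34 and 0.92 were alike. Hmg1l1 (ENSRNOT00000044787), an HMGB1-like sequence that may share reads with its close relatives, was at 19.4, 24.3, 17.99 and 8.22 CPM in Sham and 22.1, 64.3, 106 and 40.97 in FT, with little difference in pair 1. Angptl6 (ENSRNOT00000027963), a secreted angiopoietin-like protein, Golm1 (ENSRNOT00000037597), a Golgi membrane protein, and 1700019D03Rik had log2 fold changes of 1.68 ± 0.35, 1.59 ± 0.34 and 1.61 ± 0.35. All 3 were scarce, with Sham levels between 0.449 and 20.8 CPM.

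The 12 named transcripts with the lowest p that were lower in every pair included Rbx1 of the ubiquitin system, Napb of vesicle fusion and the channel subunits Scn2b and Cacna1i. All but Mtx3 fell by DESeq2, and Rbx1 and Napb did so without each replicate. Rbx1 (ENSRNOT00000025979), the RING subunit of cullin ubiquitin ligases, fell from 138, 272, 117 and 61.3 CPM to 58.8, 129, 41.6 and 40.4. The decrease was of like size in pairs 1, 3 and 4 and smaller in pair 5, and the log2 fold change was -1.10 ± 0.23 with an adjusted p of 0.346 by edgeR and 0.00697 by DESeq2. Ndrg3 (ENSRNOT00000055232), a member of the NDRG family, fell from 14.00, 13.03, 57.1 and 41.1 CPM to 6.68, 8.70, 4.21 and 6.97. The groups did not overlap, and the FT samples were closer to each other than the Sham samples were. Its log2 fold change was -2.04 ± 0.45, with log2 ratios of -1.05, -0.58, -3.72 and -2.54 in pairs 1, 3, 4 and 5. Napb (ENSRNOT00000006329), beta-SNAP, which helps to recycle SNARE complexes after vesicle fusion, fell from 15.3, 56.6, 89.2 and 49.2 CPM to 7.84, 39.9, 8.23 and 11.4. The log2 ratio was -3.42 in pair 4 and -0.50 in pair 3.

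Scn2b (ENSRNOT00000021819), the beta-2 subunit of voltage-gated sodium channels, fell from 4.49, 21.6, 10.02 and 18.5 CPM to 2.96, 14.02, 2.06 and 4.28, and Cacna1i (ENSRNOT00000048790), the T-type calcium channel Cav3.3, from 0.748, 13.5, 1.16 and 3.87 to 0.232, 4.83, 0.490 and 0.549. Both were highest in replicate 3, and their log2 fold changes were -1.40 ± 0.35 and -1.85 ± 0.42. Lrrtm4 (ENSRNOT00000030588), a postsynaptic adhesion protein, fell from 3.16, 1.80, 25.6 and 22.5 CPM to 1.45, 1.69, 8.33 and 8.62, with a log2 ratio of -0.081 in pair 3. Emd (ENSRNOT00000056282), the inner nuclear membrane protein emerin, fell from 60.3, 41.4, 33.3 and 33.4 CPM to 41.5, 23.4, 10.97 and 12.9. Tmem18 (ENSRNOT00000006836), a nuclear envelope protein, fell from 5.69, 4.94, 20.6 and 11.3 to 1.74, 3.87, 4.02 and 4.45 with no overlap, as did the zinc finger gene ZFP623, from 9.81, 8.09, 10.4 and 8.73 to 5.81, 2.42, 3.92 and 3.68. The call of ZFP623 was lost whichever replicate was left out. Tmem205 and the J-domain protein Dnajc16 had log2 fold changes of -1.05 ± 0.26 and -1.15 ± 0.29. Mtx3 (ENSRNOT00000061761), a metaxin of the mitochondrial outer membrane, was at most 4.49 CPM, its log2 fold change was -2.40 ± 0.52, and DESeq2 gave it no adjusted p.

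**Figure D3:**
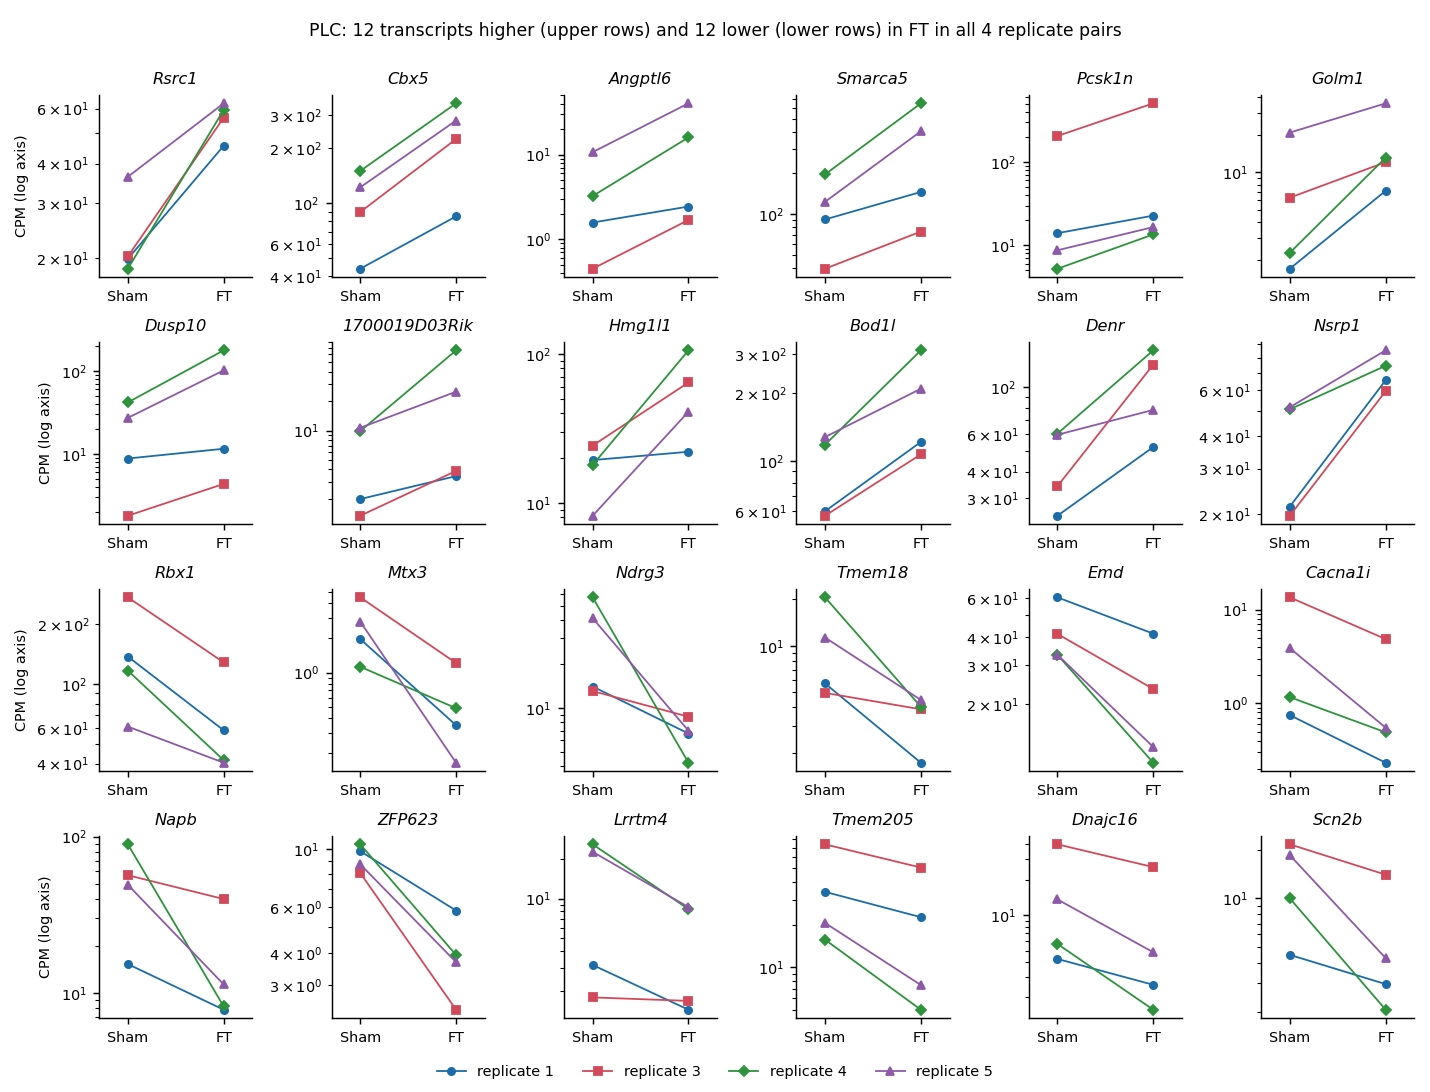
CPM (log axis) of the 24 named transcripts with the lowest p that differed in one direction in all 4 pairs, with a line from the Sham to the FT sample of each replicate number. The lines of a panel run the same way but start at different levels, as for Pcsk1n, where replicate 3 lies above the rest, and Smarca5, where replicates 4 and 5 do.

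Of the transcripts without a name, ENSRNOT00000075747 and ENSRNOT00000031636 had the lowest p on the higher side, with log2 fold changes of 2.06 ± 0.35 and 1.65 ± 0.29. On the lower side, ENSRNOT00000071231 was at 1012, 1944, 80.4 and 87.6 CPM in Sham and 91.3, 1051, 2.45 and 3.90 in FT, and ENSRNOT00000071687 at 19.9, 9.44, 4.93 and 5.53 and 3.43, 3.87, 0.0980 and 0.275. Their log2 fold changes were -3.49 ± 0.59 and -2.98 ± 0.51. All 4 were DESeq2 calls. ENSRNOT00000071231 differed least in replicate 3, where it was most abundant.

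The size of the differences depended on the replicate pair. Over the 147 DESeq2 calls, the median log2 ratio in the direction of the call was 0.86, 0.91, 1.68 and 1.10 in pairs 1, 3, 4 and 5, and 140 of the 147 had the same sign in all 4. Since the calls were made on these samples, that is a description. Across all 13211 transcripts, the log2 ratios of pairs 1 and 3 correlated at 0.28 and those of pairs 4 and 5 at 0.27. The other 4 combinations of pairs gave -0.038 to 0.043. Transcripts are not independent replicates, and these values only describe which pairs resembled each other. The pairs also differed in composition as given above, and the part of that in these differences was not tested. Without replicate 3, edgeR's 25 calls included 6 with a name. Mat2a, Napb, Ndrg3 and Tmem18 fell, with log2 fold changes of -2.17, -2.15, -2.43 and -1.79 and adjusted p of 0.0148, 0.0205, 0.0169 and 0.074. Golm1 and Prtg, an immunoglobulin superfamily protein of early neural development, rose by 1.76 and 2.14.

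The genes that the study followed across regions had uneven values in PLC. Mat2a (ENSRNOT00000018170), which makes the methyl donor S-adenosylmethionine, was at 16.5, 43.6, 85.2 and 77.2 CPM in Sham and 7.66, 44.97, 11.95 and 13.1 in FT. It was lower in pairs 1, 4 and 5 and had a log2 ratio of 0.044 in pair 3, with a log2 fold change of -1.65 ± 0.42 and an adjusted p of 0.346 by edgeR and 0.0132 by DESeq2. Cds2 (ENSRNOT00000028888), an enzyme of phosphatidylinositol synthesis, was at 0.997, 139.8, 5.13 and 4.66 CPM in Sham and 0.639, 105, 0.882 and 0.604 in FT, and Chrm1 (ENSRNOT00000024785), the M1 muscarinic receptor, at 2.45, 84.5, 0.841 and 2.13 and 0.755, 63.3, 0.294 and 0.275. Replicate 3 was far above the other numbers for both. Cds2, Chrm1 and Napb were lower in all 4 pairs and were DESeq2 calls. With 1 replicate left out at a time, Napb was called in 4 of the 4 fits, Cds2 in 2 and Chrm1 in 1. Chrm1 had 3 and 5 reads in FT replicates 4 and 5.

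Otub1 (ENSRNOT00000028752), a deubiquitinase, was at 892, 631, 189 and 429 CPM in Sham and 1219, 479.6, 714 and 1383 in FT. It was higher in pairs 1, 4 and 5 and lower in pair 3, with a log2 fold change of 0.93 ± 0.38 and adjusted p of 0.484 by edgeR and 0.256 by DESeq2. Trim28 (ENSRNOT00000029996), the transcriptional co-repressor KAP1, was at 94.1, 65.2, 69.8 and 96.4 CPM in Sham and 91.9, 79.3, 523 and 139 in FT. The FT sample of replicate 4 stood alone. Gabrb2 (ENSRNOT00000004970), a subunit of the GABA-A receptor, was at 2.74, 6.74, 21.6 and 16.99 CPM in Sham and 3.37, 7.25, 4.80 and 3.62 in FT, lower in pairs 4 and 5 only. Grin2c (ENSRNOT00000004477), an NMDA receptor subunit, was at 7.48, 6.29, 6.01 and 7.67 CPM in Sham and 8.88, 11.6, 11.1 and 9.78 in FT, so that every FT sample was above every Sham sample, but its log2 fold change of 0.57 ± 0.27 had an edgeR adjusted p of 0.543. Ntrk2, the receptor of the neurotrophin BDNF, Slc7a10, an astrocytic amino acid transporter, and Sirt2, a deacetylase abundant in myelin, had log2 fold changes of -0.17 ± 0.28, 0.46 ± 0.32 and 0.29 ± 0.33, and none was a call of either tool. Htr1a, the serotonin 1A receptor, had too few reads to be tested, 31 over the 4 Sham and 14 over the 4 FT libraries, of which 19 were in Sham replicate 5.

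Gene lists were described by their counts and by the median of the edgeR log2 fold changes, which was 0.019 over all transcripts tested and 0.17 over the named ones. Lists are of named transcripts, which the study chose in part on these samples, so a list's direction is not independent evidence and its counts are to be read against those of all named transcripts. No member of any list passed edgeR's adjusted threshold in the fit with the low-count filter. Without the filter, edgeR called 278 transcripts in all, 168 of them named. They included 55 of the 97 genes followed across settings. Those 97 are not the list members and were chosen in part for a low p in this comparison, so their share is no result. Of 34 chromatin regulators, all tested, 28 had a positive log2 fold change, 6 (17.6%) were higher and 0 lower at an unadjusted p under 0.05, and 4 rose by DESeq2. The share that was higher was near that of all named transcripts. Their median was 0.26, and the medians in pairs 1, 3, 4 and 5 were 0.31, 0.046, 0.66 and 0.28. Beside Cbx5 and Smarca5, the DESeq2 calls were Atrx, a chromatin remodeller of heterochromatin, and Arid4b, a subunit of the Sin3 deacetylase complex. Atrx was at 131, 182, 215 and 231 CPM in Sham and 341, 434, 358 and 352 in FT with a log2 fold change of 0.99 ± 0.24, and Arid4b at 16.7, 13.5, 21.6 and 21.97 and 28.97, 31.2, 42.3 and 32.3 with 0.87 ± 0.22. For neither did the groups overlap, and the call of Arid4b was lost whichever replicate was left out. Cbx6, a Polycomb protein, also had no overlap, with a log2 fold change of 0.75 ± 0.24, and was no call.

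Cytosolic ribosomal protein transcripts had a median below 0. Of 27, all tested, 9 (33.3%) were lower and 0 higher at an unadjusted p under 0.05, 8 were lower in all 4 pairs, and 3 fell by DESeq2. The median was -0.50, and the medians in pairs 1, 3, 4 and 5, -0.52, -0.47, -1.21 and -0.33, were all below 0. Rps21 was at 825, 1908, 428 and 213 CPM in Sham and 390.5, 1074, 190.2 and 169 in FT, Rpl37 at 1046, 1509.7, 1131 and 431 and 578, 1163, 277 and 268, and Rpl32 at 16.9, 89.9, 38.1 and 13.9 and 8.53, 62.6, 13.03 and 9.67. Their log2 fold changes were -0.85 ± 0.26, -0.98 ± 0.31 and -0.89 ± 0.24, and the call of Rpl32 was lost whichever replicate was left out. Ribosomal protein genes have many processed copies, so the split of reads among them is uncertain. Of the 25 mitochondrial ribosomal proteins, 20 had positive log2 fold changes, 4 (16%) were higher and 0 lower at an unadjusted p under 0.05, and none was a DESeq2 call. The share that was higher and the median of 0.20 were near those of all named transcripts, and the difference between the 2 ribosomal lists was not tested. Their medians of -0.034, -0.18, 0.62 and 0.79 were above 0 in pairs 4 and 5 only. Mrpl51 and Mrps15 had log2 fold changes of 1.09 ± 0.43 and 0.68 ± 0.24.

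The 31 nuclear-encoded respiratory chain transcripts had a median of 0.18, with 4 (12.9%) higher and 2 (6.45%) lower at an unadjusted p under 0.05. Their pair medians were -0.35, -0.22, 0.34 and 0.71, below 0 in pairs 1 and 3 and above 0 in pairs 4 and 5. Atp5j2, a subunit of ATP synthase, rose by DESeq2, from 307, 247, 483 and 198 CPM to 507, 622, 794 and 487 with no overlap, and Sdhc, a subunit of succinate dehydrogenase, fell, from 503, 426, 535 and 271 to 294, 250.4, 185 and 199. Their log2 fold changes were 1.02 ± 0.25 and -0.88 ± 0.26. The 8 mitochondrially encoded transcripts had a median of 0.053, and all 8 were higher in pair 3 while 7 of 8 were lower in pair 4. MT-ATP8 was the member with a p under 0.05, at 0.79 ± 0.34. Of 28 ubiquitin and proteasome transcripts, 5 (17.9%) were higher and 3 (10.7%) lower at an unadjusted p under 0.05. Both shares were near those of all named transcripts. Ube3a, the ligase of the Angelman locus, rose by DESeq2, with a log2 fold change of 0.99 ± 0.26. Rbx1 fell, as given above.

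Among the neuronal lists, transcripts of ion channels, GABA signalling and vesicle release were lower more often than higher. At an unadjusted p under 0.05, 9.87% of all named transcripts were lower and 16.6% higher. Of 18 ion channel transcripts, 6 (33.3%) were lower and 1 (5.56%) higher at an unadjusted p under 0.05, and Cacna1i and Scn2b fell by DESeq2. The median was -0.38, with pair medians of 0.14, -0.061, -0.87 and -0.93. Hcn2, a hyperpolarization-activated channel, and Scn8a, the sodium channel Nav1.6, had log2 fold changes of -0.84 ± 0.33 and -0.59 ± 0.27. Of 7 GABA transcripts 3 (42.9%) were lower and 0 higher, with a median of -0.49 and pair medians of -0.40, -0.22, -0.82 and -0.75. Slc6a11, the astrocytic GABA transporter GAT3, fell by DESeq2 from 3.99, 11.7, 4.21 and 5.18 CPM to 2.32, 7.49, 1.37 and 1.32, and this call and those of Grik3 and Syngr1 were lost whichever replicate was left out. Gabrg1, a GABA-A subunit, was at 18.9, 26.5, 32.2 and 12.2 CPM in Sham and 12.8, 18.4, 10.9 and 8.18 in FT, lower in every pair and no call. Of 17 vesicle transcripts, 5 (29.4%) were lower and 1 (5.88%) higher. Syngr1, the vesicle protein synaptogyrin, and Napb fell by DESeq2, while Sncb, beta-synuclein, was at 0.78 ± 0.25. Complexin 2 (Cplx2), which clamps SNARE complexes, was at -1.02 ± 0.35.

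Of 8 glutamate receptor transcripts, 1 (12.5%) was higher and 1 (12.5%) lower at an unadjusted p under 0.05. The kainate receptor Grik3 fell by DESeq2 with a log2 fold change of -1.43 ± 0.42, and the delta receptor Grid1 was at 0.73 ± 0.30. Serotonin signalling was poorly covered by the names. Of 25 symbols fixed for it, 5 were named and 4 tested. They are the regulators and enzymes of tetrahydrobiopterin, the cofactor of monoamine synthesis, and Qdpr, Gchfr, Spr and Pts had log2 fold changes of 0.42 ± 0.25, 0.32 ± 0.39, 0.24 ± 0.28 and 0.051 ± 0.33. None had a p under 0.05.

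The lists of activity and hormone response were small. Fos, an immediate early gene of neuronal activity, was at 26.4, 30.6, 18.8 and 44.5 CPM in Sham and 56.5, 43.8, 30.6 and 75.1 in FT. It was higher in all 4 pairs, with a log2 fold change of 0.78 ± 0.21 and adjusted p of 0.37 by edgeR and 0.129 by DESeq2. Vgf, a neurotrophin-induced peptide precursor, was at 38.1, 35.96, 16.4 and 10.4 CPM in Sham and 32.7, 40.4, 75.3 and 31.4 in FT, so that the difference lay in pairs 4 and 5. The same held for Cirbp, the cold-inducible RNA-binding protein, at 153, 76.4, 86.3 and 76.7 and 109.7, 99.8, 285 and 525, and for Dbp, a transcription factor of circadian output, at 81.98, 61.1, 52.8 and 44.2 and 82.3, 54.9, 218 and 123. Of 8 glucocorticoid and stress transcripts, 4 (50%) were higher and 1 (12.5%) lower at an unadjusted p under 0.05, with a median of 0.56. Cdkn1a, the cell cycle inhibitor p21, rose by DESeq2 from 4.49, 3.60, 2.20 and 5.73 CPM to 10.4, 7.98, 5.49 and 10.5, a call that was lost whichever replicate was left out. Ppp1r15a, the stress-induced phosphatase subunit GADD34, was at 0.80 ± 0.28, and the mineralocorticoid receptor Nr3c2 was lower in all pairs at -1.16 ± 0.39.

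**Figure D4:**
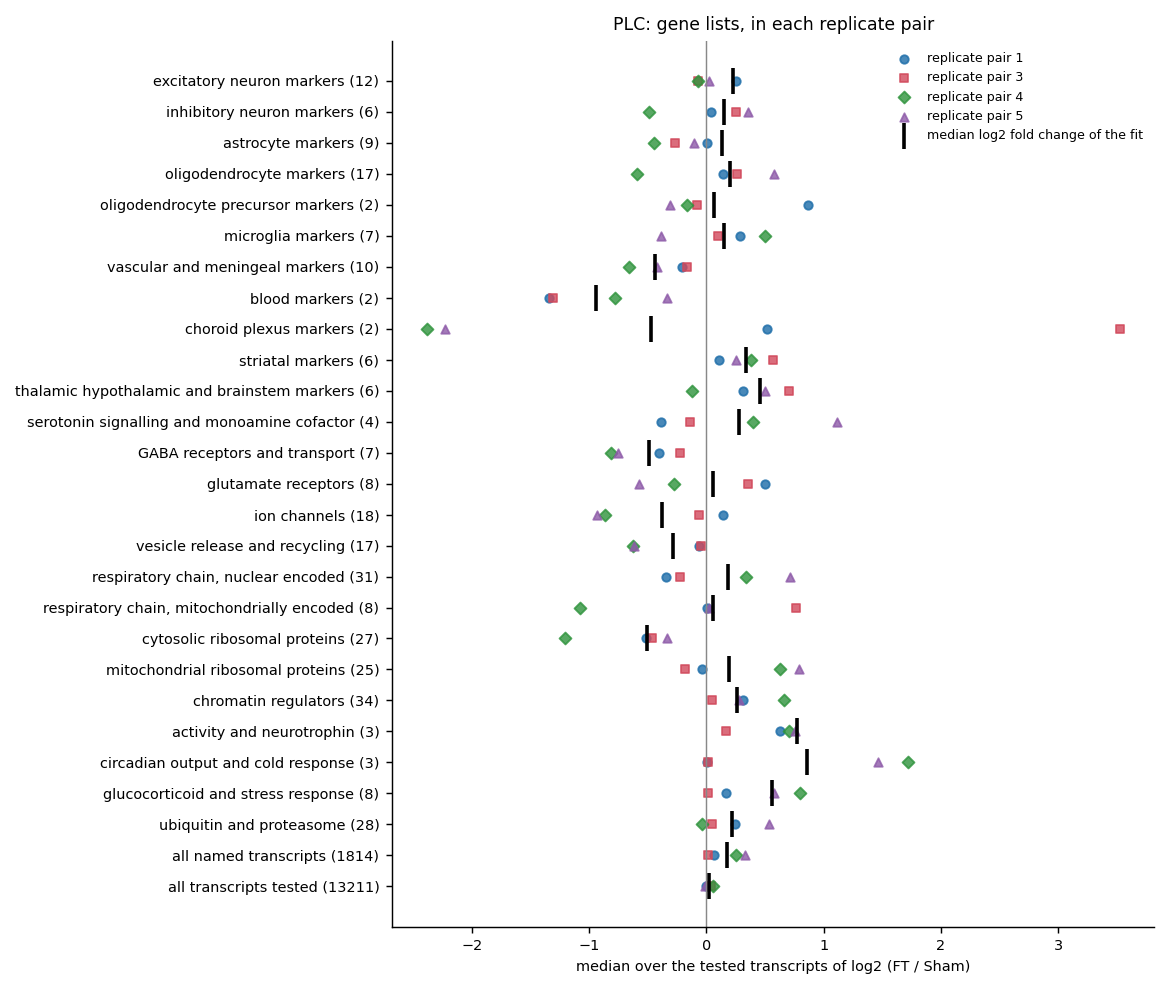
Median log2 ratio of FT over Sham in each gene list (number of transcripts tested in brackets), for each replicate pair (coloured marks) and as the median edgeR log2 fold change (black bar). The cytosolic ribosomal, blood, vascular and meningeal, GABA and vesicle lists lie left of 0 in every pair, the vesicle list only slightly in pairs 1 and 3. The nuclear-encoded respiratory chain, mitochondrial ribosomal and ion channel lists differ between pairs 1 and 3 and pairs 4 and 5.

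Cell type markers were set beside these results. Both blood transcripts fell by DESeq2. With 1 replicate left out, the call of Hbb was kept only without replicate 4 or 5, and that of Hbb-b1 only without replicate 4. Hbb was at 368, 1811, 106 and 58.8 CPM in Sham and 122, 653, 60.8 and 48.99 in FT and Hbb-b1 at 62.8, 153, 23.6 and 18.7 and 29.2, 69.4, 13.9 and 14.1, lower in FT in every pair, with log2 fold changes of -1.03 ± 0.28 and -0.86 ± 0.22. These globin copies may share reads. Their sum ranged from 77.4 to 1964 CPM in Sham and from 63.05 to 723 in FT. Of 10 vascular and meningeal transcripts, 2 (20%) were lower and 0 higher at an unadjusted p under 0.05. Their median was -0.44, with pair medians of -0.21, -0.17, -0.66 and -0.42. Summed, they were at 134, 162, 90.9 and 79.9 CPM in Sham and 89.1, 127, 85.1 and 72.9 in FT, lower in every pair. The members were mixed, with 4, 4, 4 and 5 of the 10 higher in pairs 1, 3, 4 and 5. Rasip1 and Myh11 were higher in all 4 pairs, at 0.52 ± 0.32 and 0.67 ± 0.35. Only Myl9 was lower in all 4, at -0.48 ± 0.28. The part of blood and vessels in the other differences was not tested.

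Of 17 oligodendrocyte transcripts, 2 were higher (Myrf and Olig2, both transcription factors of the lineage, at 0.84 ± 0.26 and 0.89 ± 0.37) and 1 lower (the receptor Erbb3, at -1.42 ± 0.46), and their sums of 421 to 1469.8 CPM in Sham and 522 to 872 in FT overlapped. Of 12 excitatory neuron transcripts, 1 (8.33%) was higher and 4 (33.3%) lower. Nrgn rose by DESeq2 from 311, 1609, 50.97 and 186 CPM to 469, 2835, 166 and 255, a call that was lost whichever replicate was left out, and Chrm1 fell. CAMK2A, the alpha subunit of the kinase CaMKII, Enc1 and Lamp5 were at -0.87 ± 0.32, -0.74 ± 0.28 and -0.52 ± 0.21. Of 9 astrocyte transcripts, Mt1a, a metallothionein, was higher at 0.72 ± 0.29, and Slc6a11 and the potassium channel Kcnj10 were lower. None of 6 inhibitory neuron, 7 microglia, 2 oligodendrocyte precursor and 2 tested choroid plexus transcripts had a p under 0.05. Of 6 striatal and 6 tested thalamic, hypothalamic and brainstem transcripts, 1 and 3 were higher and 0 lower at an unadjusted p under 0.05. DRD2, the D2 dopamine receptor, was at 2.87, 1.35, 1.40 and 2.77 CPM in Sham and 4.47, 3.38, 4.21 and 3.79 in FT with no overlap, and Slc17a6, the vesicular glutamate transporter of subcortical neurons, at 6.52, 4.05, 24.7 and 12.96 and 17.9, 9.91, 21.1 and 19.2. The other 2 were the peptide genes Cartpt and Gal, at 0.98 ± 0.40 and 1.56 ± 0.57. Striatal sums were 171, 160, 93.0 and 123 CPM in Sham and 217, 209, 116 and 134 in FT, higher in every pair. Of the 6 striatal transcripts, 3 were higher and 1 lower in all 4 pairs. The lower 1 was the adenosine receptor Adora2a, at -0.23 ± 0.34. PENK, an abundant member of the list, was at 0.10 ± 0.20. The part of choroid plexus, striatal or subcortical tissue in the other differences was not tested.

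The PLC response was then set against that of the 3 other cortical regions of the series, the infralimbic (ILC), cingulate (CGC) and insular cortex (InsularCortex), in a joint edgeR fit with an interaction term. Of 15014 transcripts, 0 (0.0%) differed at an adjusted p of 0.1, 202 had an unadjusted p under 0.05 and the lowest adjusted p was 1. The 202 were a smaller share of the 15014 than the 0.05 that chance alone would give. The test was thus conservative, and its 0 calls do not show that the regions responded alike. This interaction was not run in DESeq2. No transcript was therefore shown to respond differently in PLC, and the values below are given side by side. In the joint fit, Denr had a log2 fold change of 1.15 ± 0.24 in PLC and 0.19 ± 0.24, 0.19 ± 0.27 and 0.50 ± 0.24 in ILC, CGC and InsularCortex. Its interaction was 0.86 ± 0.28, with the lowest unadjusted p (0.00671) of the 24 transcripts plotted by sample. Those 24 were chosen for a low p in PLC, and the interaction uses the same PLC samples. The choice itself thus favours larger differences in PLC than elsewhere. Cbx5 was at 1.16 ± 0.22 in PLC and 0.70 ± 0.23, 0.19 ± 0.25 and 0.84 ± 0.22 elsewhere. Napb was at -1.75 ± 0.45, -1.29 ± 0.46, -1.35 ± 0.49 and -1.56 ± 0.43 in the same order, and Mat2a at -1.65 ± 0.50, -1.91 ± 0.53, -1.88 ± 0.54 and -1.99 ± 0.49. For both, the intervals of 1 SE around the 4 values overlapped. Slc7a10 had a log2 fold change of 0.44 ± 0.40 against 1.01 ± 0.44, 1.31 ± 0.46 and 1.251 ± 0.40, with an interaction of -0.75 ± 0.47.

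The blood transcripts had the opposite sign in the neighbouring ILC. The smallest ILC library held 543403 reads on transcripts, against 3865795 in PLC, so transcripts with few reads are less precise there. Hbb was at -1.04 ± 0.37 in PLC, 1.06 ± 0.39 in ILC, 0.32 ± 0.42 in CGC and -0.27 ± 0.36 in InsularCortex, with an interaction of -1.41 ± 0.43 and an unadjusted edgeR p of 0.0042. Hbb-b1 was at -0.86 ± 0.40, 1.11 ± 0.47, 0.21 ± 0.46 and 0.14 ± 0.40, with an interaction of -1.35 ± 0.48. Neither passed after adjustment. Rbx1, which was lower in PLC at -1.11 ± 0.30, was at -0.081 ± 0.32 in ILC, and its interaction of -0.79 ± 0.35 had an unadjusted edgeR p of 0.0365. Rbx1 too had been chosen for its low p in PLC.

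**Figure D5:**
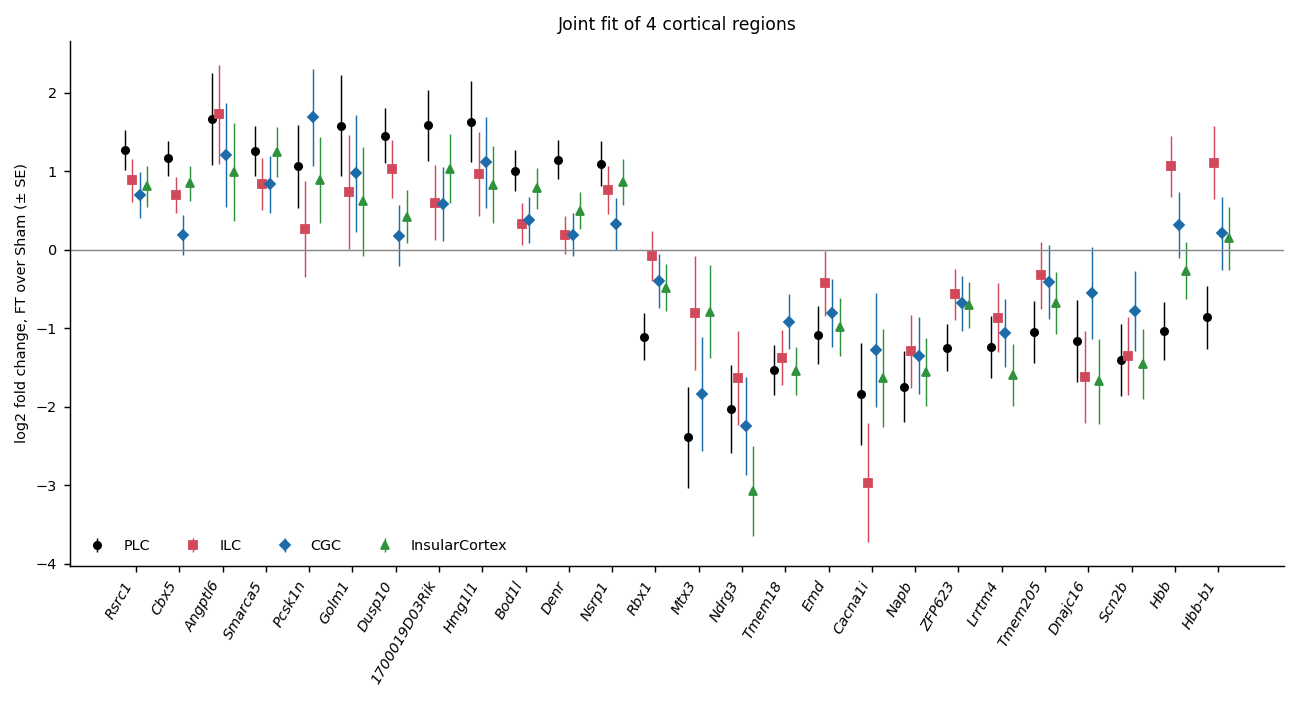
Log2 fold change of FT over Sham (± SE) in 4 cortical regions from the joint fit, for the 24 transcripts plotted by sample and the 2 globin transcripts. Each of the 24 transcripts, whose names come from a list of transcripts shared between regions, has 1 sign in all 4 regions, and the globin transcripts are below 0 in PLC and above 0 in ILC.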

How the data were processed

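The 8 libraries, each of punches pooled from 10 animals, were made with a stranded total RNA kit and read as 76 bp pairs. The authors aligned the reads to rn5 with STAR and deposited raw counts per Ensembl transcript made with HTSeq, with no normalization. Tool versions and the strand setting are not given in the sources used here. The 5 closing lines of each file, which name no transcript, were dropped. Reads outside any feature were 26.6% to 54.8% of a file's total. Counts on transcripts were 3865795 to 26436170 per library, and transcripts with few reads are measured with less precision.

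The counts were fitted with edgeR 4.0.16 in R 4.3.3 (TMM factors, filterByExpr set to 10 reads as minimum count and 15 as minimum total, replicate number as a block, quasi-likelihood test). Calls had p-values, adjusted by Benjamini-Hochberg, no higher than 0.1 and log2 fold changes of 0.32 or more in size (1.25-fold). The standard error (SE) is the size of the log2 fold change divided by the root of the F statistic. Alternatives were DESeq2 1.42.0, which the study used, also with replicates as blocks, a fit lacking the block, RLE factors, all transcripts with any count, a threshold of 0.05, a joint fit of 4 cortical regions and each replicate left out. Levels are CPM after TMM scaling, and ratios of pairs used log2 CPM with a prior count of 2. Both fits were tested on simulated counts. The pairing comes from the study's methods, by which the FT and Sham samples of a number were processed in parallel. The deviations of such samples from their group means correlated at 0.612 to 0.818 over the 4 pairs. The study removed CGC replicates as outliers, and the methods text does not give their numbers. The CGC pair of replicate 1 was left out of the joint fit here. A fit with all CGC pairs and a fit without the ILC pair of replicate 3 were alternatives.

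The text names the 12 named transcripts with the lowest p that were higher, and the 12 that were lower, in all 4 pairs, the 2 unnamed transcripts with the lowest p in each direction, up to 4 members of each gene list with the lowest p in each direction, the most abundant members of marker lists, and the genes that the study followed. Names came from the study's list of shared transcripts. A few genes that the rule picked are not reported here. Members, lists and tests were chosen with earlier results of these data known. Figures were drawn with matplotlib 3.10.9 in Python 3.11.15.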

Additional observations from a re-analysis of the deposited data

Results flagged for a closer look

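In 8 of the 194 groups of 4 samples examined (4.12%), 1 library stood apart from the other 3 by Dixon's ratio on log2 CPM. Chance alone flags about 1 in 20 groups. Values are CPM. In 4 of the 8 flagged groups the library apart was the FT library of replicate 3. Pcsk1n was at 505 there against 13.5 to 22.8 in the other FT libraries, Cds2 at 105 against 0.604 to 0.882 and Chrm1 at 63.3 against 0.275 to 0.755. Lamp5 was lower there, at 74.0 against 109 to 117. The Sham library of replicate 5 stood apart for Rsrc1, at 36.3 against 18.5 to 20.2, and for Slc7a10, at 26.8 against 11.1 to 12.5. The FT library of replicate 1 had the lowest Tmem18 level, 1.74 against 3.87 to 4.45, and that of replicate 5 the highest Gal level, 4.998 against 0.686 to 0.967.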

How the results depend on the processing

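The number of calls between FT and Sham depended on the tool, the filter and the block. edgeR called 0 transcripts with the block, with no replicate block, with RLE factors, in the joint fit and at an adjusted p of 0.05, but 278 with no low-count filter (160 higher and 118 lower), and DESeq2 called 147. Leaving out 1 replicate at a time gave 0 to 25 edgeR calls, the 25 without replicate 3. DESeq2 fits without the block or without a replicate were chosen after seeing the data. They gave 0 calls with no replicate block and 52 to 135 without a replicate, the 52 without replicate 5. At an unadjusted p under 0.05, edgeR had 1254 transcripts with the block and 170 without it. The cause of these differences was not tested. The comparison with the other cortical regions gave 0 calls under every alternative run.

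Of the 97 genes followed, Ntrk2 and Sirt2 changed sign. With 1 replicate left out, the log2 fold change of Ntrk2 ranged from -0.44 to 0.029 by edgeR and from -0.46 to 0.039 by DESeq2, and that of Sirt2 from -0.14 to 0.58 and from -0.13 to 0.60. For both genes the sign turned without replicate 4. With no replicate block, Sirt2 was at -0.00589 by edgeR and -0.015 by DESeq2. List medians moved by more than the spread between pairs in 4 of 225 refits. The Sham library of replicate 3 held the fewest reads, so low levels are least precise there.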
